A study of Mus musculus with 2 samples.

Results

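The genes described here encode the proteins of the cytosolic ribosome. They were taken by symbol from the gene table that both deposited libraries share: every row named Rpl or Rps followed by a number, the stalk genes Rplp0, Rplp1 and Rplp2, and Rpsa, leaving out pseudogene names with -ps and the Rps6k kinases. The rule took 86 of 32285 rows: 43 large subunit genes, 31 small subunit genes, 3 stalk genes and 9 rows that are paralogs of a core protein or no ribosomal protein. Of these, 83 reached a mean of 20 CPM (a gene's summed counts scaled to the library or class total) and were compared gene by gene. The other 3, Rpl3l, Rpl10l and Rpl39l, are paralogs known from muscle and testis, with 1, 0 and 0 UMIs (unique molecular identifiers, 1 per captured molecule) in all cells. With a count of 0, up to 3 UMIs per library cannot be told from none.

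The libraries came from single, living cells of the tongue epithelium of male B57BL/6 mice aged 8 to 12 weeks, taken at Zeitgeber time 0 (ZT0, lights on by convention) and 12 (ZT12, lights off). No allele or treatment is given, and neither is the number of mice in a library. There was 1 library per time, so time of day and library cannot be told apart, no test across animals was possible, and every interval covers counting error only. The series asks how the cell populations of this epithelium vary over the day.

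A ribosome is built of a small subunit, which reads the mRNA, and a large subunit, which joins the amino acids, and each holds its set of proteins in fixed proportion. The mRNAs of these proteins are among the most abundant of a cell and share a start, the terminal oligopyrimidine tract (TOP), a C followed by a run of C and T, through which mTOR signalling and LARP1 control their translation as a group. In a stratified epithelium such as that of the tongue, cells divide in the basal layer, move up, differentiate and cornify, and hair-type keratins mark the filiform papillae.

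Start sites of 66 of the 86 genes were found in the RefSeq table (GRCm38.p6). A run of at least 8 C or T letters that begins with C lay within 50 bases on either side of a start in 53 of them (80.3%), against 32.0% of the 27025 genes in the table. The motif CCGGAAG, searched on both strands from 100 bases before to 50 after the start, was present in 20 (30.3%), against 7.52% of all genes in the same window. A match is a description of the letters and not a measured site. Nor does the lack of a match near an annotated start show that an mRNA has no TOP. The sequences of 8 members from both ends of the ZT12 to ZT0 order are shown, since either end holds members with the run and a member without it. For medians the members were split by the first listed start of each gene. Rpl10a, Rpl19 and Rpl22, which have a run at another start only, thus counted as without. Over all cells the median log2 ratio of ZT12 to ZT0 was -0.08 for the 48 measured members with a run and 0.05 for the 15 without. In filiform-like against basal-like cells these sets had medians of -0.49 and -0.50 at ZT0. Each sequence runs 5′ to 3′ over 30 bases before and 20 after the annotated start. The part of the run inside the window is in capitals. Rpl15, Rpl14, Rps9 and Rps3a1 were higher at ZT12, and Rps27, Rpl38, Rpl22l1 and Rps28 lower. Rps3a1 and Rps28, the lowest of all at ZT12, have no such run within 50 bases of the start.
Rpl15 (chr14:18270967-18271016, minus strand): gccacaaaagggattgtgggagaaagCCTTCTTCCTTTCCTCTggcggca
Rpl14 (chr9:120571487-120571536, plus strand): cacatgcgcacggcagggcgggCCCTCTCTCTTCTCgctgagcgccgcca
Rps9 (chr7:3704011-3704060, plus strand): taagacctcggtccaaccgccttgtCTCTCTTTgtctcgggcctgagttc
Rps27 (chr3:90213629-90213678, minus strand): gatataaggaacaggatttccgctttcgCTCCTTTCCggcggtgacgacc
Rpl38 (chr11:114668550-114668599, plus strand): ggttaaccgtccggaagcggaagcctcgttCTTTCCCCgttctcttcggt
Rpl22l1 (chr3:28805478-28805527, plus strand): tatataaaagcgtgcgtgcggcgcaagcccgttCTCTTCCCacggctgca
Rps3a1 (chr3:86142649-86142698, minus strand): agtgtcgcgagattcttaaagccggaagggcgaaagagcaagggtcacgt
Rps28 (chr17:33824543-33824592, minus strand): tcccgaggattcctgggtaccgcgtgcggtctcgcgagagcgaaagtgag

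After filtering, 1593 ZT0 cells and 2622 ZT12 cells were analysed, with a median of 28365 and 23088 UMIs per cell, and 2 barcodes occurred in both libraries. The cells fell into 19 clusters, named from marker lists as basal-like, cycling-like, differentiated-like, cornifying-like and filiform-like, plus gland-like and myeloid- or Langerhans-like cells, and 3 clusters stayed unnamed. Some clusters came almost wholly from 1 library. A basal-like cluster led by Ifitm3 held 197 ZT0 and 4 ZT12 cells and a differentiated-like cluster led by Chil4 and Cxcl10 held 170 and 1. The reverse held for a basal-like cluster led by Glul and Igfbp4, with 25 and 350 cells, and a differentiated-like cluster led by Crabp2 and Hsd17b2, with 7 and 102. In basal-like, cycling-like and filiform-like cells the summed T or NK, erythroid, endothelial, melanocyte and muscle markers reached at most 6.30 CPM in either library. Myeloid markers lay between 8.05 and 22.9 CPM there and gland markers between 1.61 and 26.5 CPM. At ZT0 and ZT12, gland markers were at 25.5 and 23.7 CPM in differentiated-like and 11.7 and 43.5 CPM in cornifying-like cells. Taste cell markers were at most 0.20 CPM in basal-like and cycling-like cells, but in filiform-like cells they were at 47.5 CPM at ZT0, with UMIs of Gnat3, Plcb2, Tas1r3 and Trpm5, and at 0.81 CPM at ZT12, so the filiform-like values of the 2 libraries differ in this respect too. The part of these markers in the results was not tested. The summed fibroblast list was at 763 and 441 CPM in basal-like, 1219 and 1098 CPM in cycling-like and 543 and 521 CPM in filiform-like cells, at ZT0 and ZT12. It was at 461 and 337 CPM in differentiated-like and 17.7 and 15.1 CPM in cornifying-like cells. Of its 5 genes, Dcn alone had UMIs in these classes, except that Col1a1 was also found in cycling-like cells at ZT0, while Col1a2, Col3a1 and Lum were at 0. Its part in the class differences was not tested.

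Ribosomal protein mRNAs were a large part of all captured molecules, and their share was highest in basal-like cells and lowest in cornifying-like and filiform-like keratinocytes. In all cells the 86 genes took 25.90% of the UMIs at ZT0 (95% exact Clopper-Pearson interval 25.89 to 25.92) and 25.54% at ZT12 (25.53 to 25.55). In basal-like cells, the Krt5 and Krt15 cells of the dividing layer, the share was 28.82% at ZT0 (473 cells) and 28.17% at ZT12 (790 cells). Large subunit genes gave 14.4% and 14.1% of basal-like UMIs, small subunit genes 12.6% and 12.3%, and the 3 stalk genes 1.65% and 1.601%, so the subunits stood in similar proportion in the 2 libraries.

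Differentiated-like cells, which carry Krt4 and Krt13, stood slightly below the basal layer. Their share was 26.26% at ZT0 (498 cells) and 25.33% at ZT12 (871 cells), 0.911 (0.910 to 0.912) and 0.899 (0.898 to 0.900) of the basal-like share. Cornifying-like cells, which make the cornified envelope proteins loricrin, Crct1 and Cnfn, had 20.81% in both libraries, with 46 and 103 cells. That was 0.722 (0.720 to 0.724) of the basal-like share at ZT0 and 0.739 (0.737 to 0.740) at ZT12. The step down toward cornification was thus larger than the spread between the 2 libraries.

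Filiform-like cells, marked by the hair-type keratins Krt36, Krt35 and Krt84, had 20.72% at ZT0 (118 cells) and 20.99% at ZT12 (191 cells), 0.719 (0.717 to 0.721) and 0.745 (0.743 to 0.747) of the basal-like share. This class joined unlike clusters. In the cluster led by Krt10, Krt16, Defb4 and Krtap3-3 the share was 16.4% at ZT0 (76 cells) and 18.2% at ZT12 (127 cells), the lowest of the 19 clusters in both libraries. In the cluster led by Krt84, Krt36, Krt35 and Hoxc13 it was 26.9% (42 cells) and 25.8% (64 cells), close to differentiated-like cells. The log2 ratio to basal-like cells averaged -0.72 over both libraries in the first cluster and -0.11 in the second, so the class value rests on the first.

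**Figure D1:**
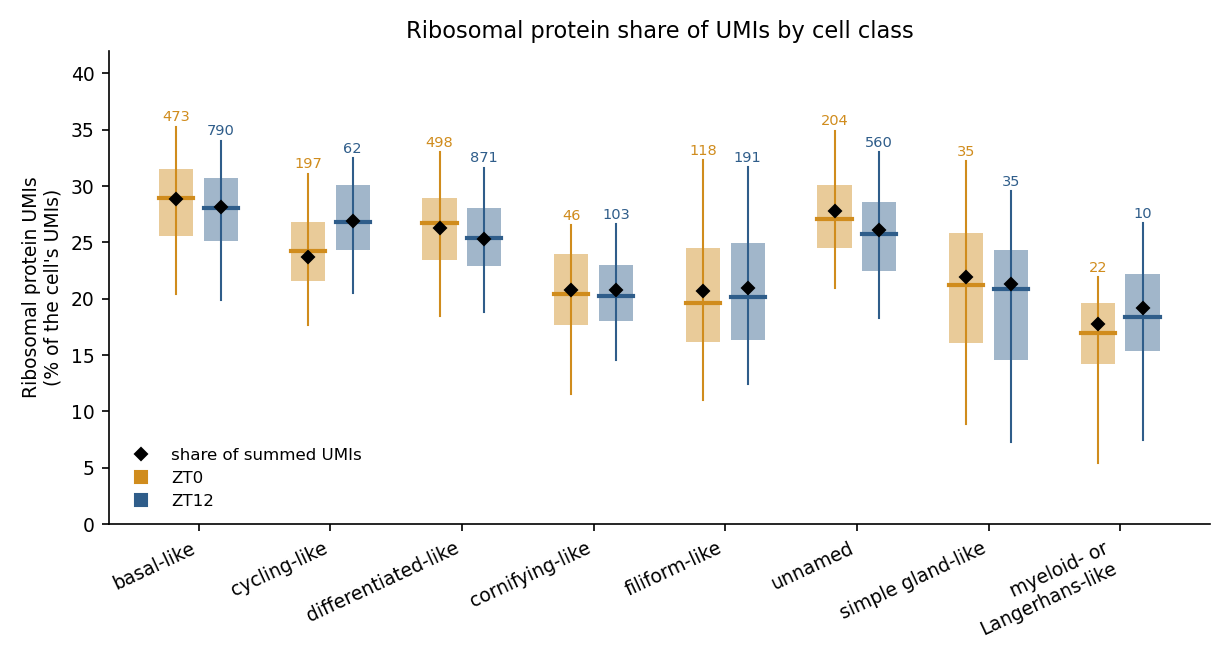
Share of each cell's UMIs that came from the 86 genes, in percent, by cell class (x axis) and library (ZT0 amber, ZT12 blue). Boxes span the quartiles over cells, bars the median, lines the 5th to 95th percentile, diamonds the share of the summed UMIs, and the numbers above are cells. The cornifying-like and filiform-like boxes lie below the basal-like ones in both libraries, and the filiform-like boxes are wide, with quartiles at 16.1 and 24.5% at ZT0.

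The basal layer was not uniform either. A cluster led by Hpgd and Pappa had 30.4% at ZT0 and 29.95% at ZT12, while one led by Sostdc1, Frem2 and Npnt had 25.3% and 26.1%. A cluster led by Lef1, Lgr6 and Notum, which carried 9 of 10 basal markers and stayed unnamed because its leading gene, Dcn, is on the fibroblast list, had 29.4% and 29.6%. The cluster with Frem2 and Npnt thus lay below the other 2 in both libraries, by more than any of these 3 differed between libraries. Sostdc1 was also among the leading genes of the Hpgd cluster. The basal-like clusters that came mostly from 1 library varied more: the Glul cluster had 31.0% in 25 ZT0 cells and 28.3% in 350 ZT12 cells, and the Ifitm3 cluster 29.05% in 197 and 27.2% in 4. Among differentiated-like clusters the one led by Crabp2 had 28.3% in 7 ZT0 cells and 23.1% in 102 ZT12 cells. Outside the keratinocytes, gland-like cells had 21.95% and 21.3% (35 cells in each library), and myeloid- or Langerhans-like cells 17.8% (22 cells) and 19.2% (10 cells).

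**Figure D2:**
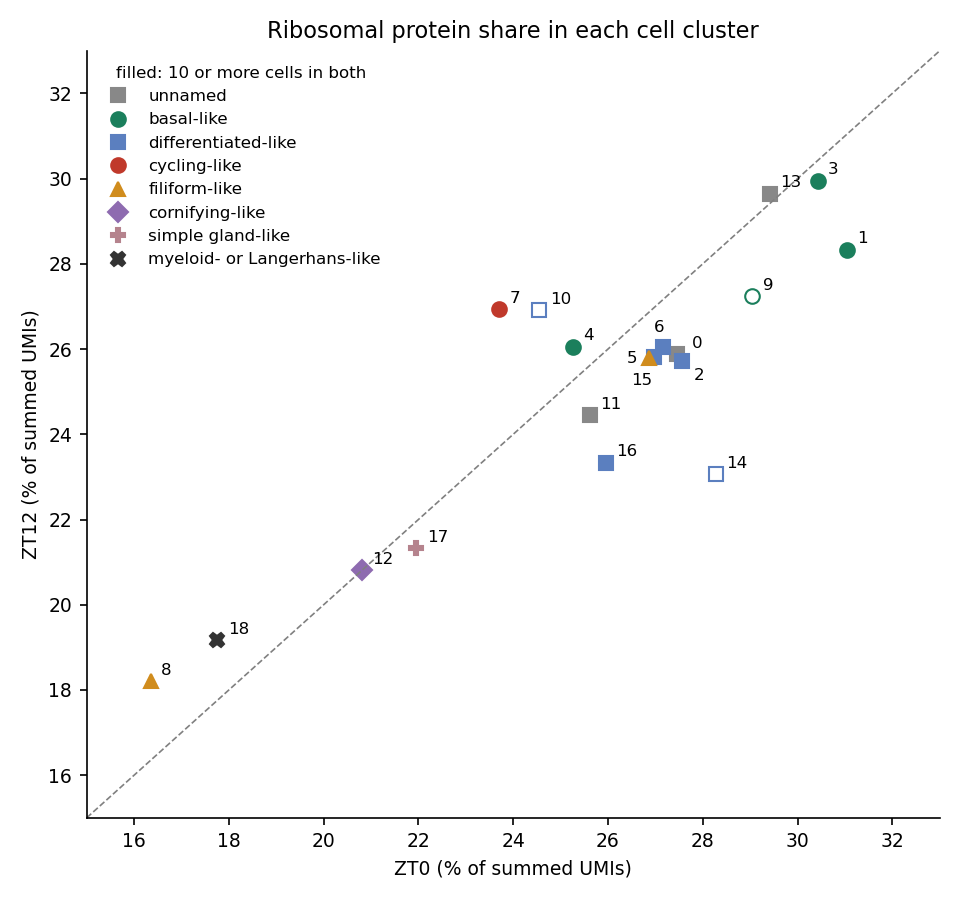
Share of summed UMIs from the 86 genes in each of the 19 clusters, ZT0 on the x axis and ZT12 on the y axis, both in percent. The symbols mark the class, open symbols have fewer than 10 cells in 1 library, and the dashed line marks equal shares. Filiform-like clusters 8 and 15 lie far apart, and the cycling-like cluster 7 lies above the line.

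Cell quality measures moved with the classes. The median mitochondrial share per cell was 4.09% and 3.90% in basal-like, 3.24% and 3.06% in filiform-like and 2.102% and 2.06% in cornifying-like cells, and the median depth was 22595 and 18358 UMIs in basal-like against 50918 and 43990 in cornifying-like cells. Their part in the shares was not tested. With mitochondrial genes out of the denominator, the cornifying-like log2 ratio averaged -0.48, beside -0.45 with them. The 50 most abundant other genes took 16.2% and 16.9% of basal-like UMIs and 26.9% and 27.0% of cornifying-like UMIs. Without those 50 genes in the denominator the log2 ratio to basal-like cells averaged -0.26 in cornifying-like and -0.06 in differentiated-like cells, beside -0.14 for the latter with them, so both steps were smaller on that scale.

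Cycling-like cells, which express Mki67, Top2a and Ube2c, differed most between the libraries. Their share was 23.7% at ZT0 (197 cells) and 26.9% at ZT12 (62 cells), a ratio of 1.14 (1.13 to 1.14). The mitotic state of these cells differed too. Split at the median share of UMIs from 7 mitotic genes (Ube2c, Ccnb1, Birc5, Cenpf, Nusap1, Tpx2 and Cenpa), 122 of the ZT0 cells and 8 of the ZT12 cells lay at or above it, and 57 and 9 cells lay within 25% of the limit.

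Within each of these sets of cells the libraries stood closer together. Cells with more mitotic mRNA had 22.5% ribosomal protein UMIs at ZT0 and 22.6% at ZT12. Cells with less had 26.3% and 27.5%. The log2 ratio of ZT12 to ZT0 was 0.18 over all cycling-like cells, 0.01 in the set with more mitotic mRNA and 0.07 in the set with less. The first of these sets rests on 8 ZT12 cells, and the split was chosen after the data were seen. The part of mitotic state in the difference between the libraries was not tested. With clusters drawn at resolution 1.5 the ratio over cycling-like cells was 0.11.

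The ZT12 share was close to the ZT0 share in the other named keratinocyte classes. The ratio of ZT12 to ZT0 was 0.986 (0.985 to 0.987) over all cells. It was 0.977 (0.976 to 0.979) in basal-like and 0.965 (0.963 to 0.966) in differentiated-like cells. In cornifying-like cells it was 1.00 (0.996 to 1.00) and in filiform-like cells 1.01 (1.01 to 1.02). The unnamed clusters, with 204 and 560 cells, had 27.8% at ZT0 and 26.1% at ZT12, a wider gap than in these classes. The largest basal-like cluster differed between the libraries, the Ifitm3 cluster at ZT0 and a cluster led by Glul and Igfbp4 at ZT12 (25 and 350 cells), and among differentiated-like cells the Chil4 cluster at ZT0 and one led by Krt23 and Ces1d at ZT12 (42 and 290 cells). The log2 ratio over all cells was -0.02, with edgeR's TMM scaling it was 0.05, and without the 50 most abundant other genes 0.01, so its direction turned with the scaling.

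Gene by gene, the members' ratios to basal-like cells lay in a narrower band than those of genes in general. Ratios to basal-like cells are given on the log2 scale of CPM plus 1. Across the 83 members the median was -0.48 at ZT0 and -0.42 at ZT12 in cornifying-like cells, with interquartile ranges of 0.17 and 0.20. Over all 5807 genes that reached 20 CPM the medians were -0.36 and -0.31, with interquartile ranges of 1.06 and 1.17. Ribosomal protein genes were thus lower than basal-like cells there by somewhat more than the median gene. Members are among the most counted genes, and the part of counting noise in the wider spread of other genes was not tested.

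In filiform-like cells the members' median lay further from that of all genes. Their median was -0.49 at ZT0 and -0.43 at ZT12, against -0.12 in both libraries over all genes. A member was lower by at least 1.2-fold in 74 and 72 of 83 cases at ZT0 and ZT12, against 40.0% and 40.3% of all genes. In cornifying-like cells 70 of 83 were lower by that much in each library, against 54.6% and 52.5% of all genes. All 77 core members (those that are no paralogs) lay below 0 in both libraries in both classes. The filiform-like values pool the unlike clusters described above, whose share ratios to basal-like cells averaged -0.72 and -0.11. Gene ratios were not taken in each of those clusters on its own.

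In differentiated-like cells the members' median lay close to that of all genes. Their median was -0.13 at ZT0 and -0.15 at ZT12, against -0.12 and -0.08 over all genes, and 6 and 9 of 83 were lower by at least 1.2-fold, against 38.8% and 36.9% of all genes. In cycling-like cells the libraries differed: the median was -0.26 at ZT0 and -0.07 at ZT12, against -0.03 and -0.05 over all genes. At ZT0 44 of 83 members were lower by at least 1.2-fold and at ZT12 1, against 28.7% and 27.7% of all genes. The order of the core members was repeatable: across 77 genes, Pearson's r between the ZT0 and ZT12 ratios was 0.97 in differentiated-like, 0.93 in cornifying-like, 0.91 in filiform-like and 0.65 in cycling-like cells, as a description of genes that share each library's depth.

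**Figure D3:**
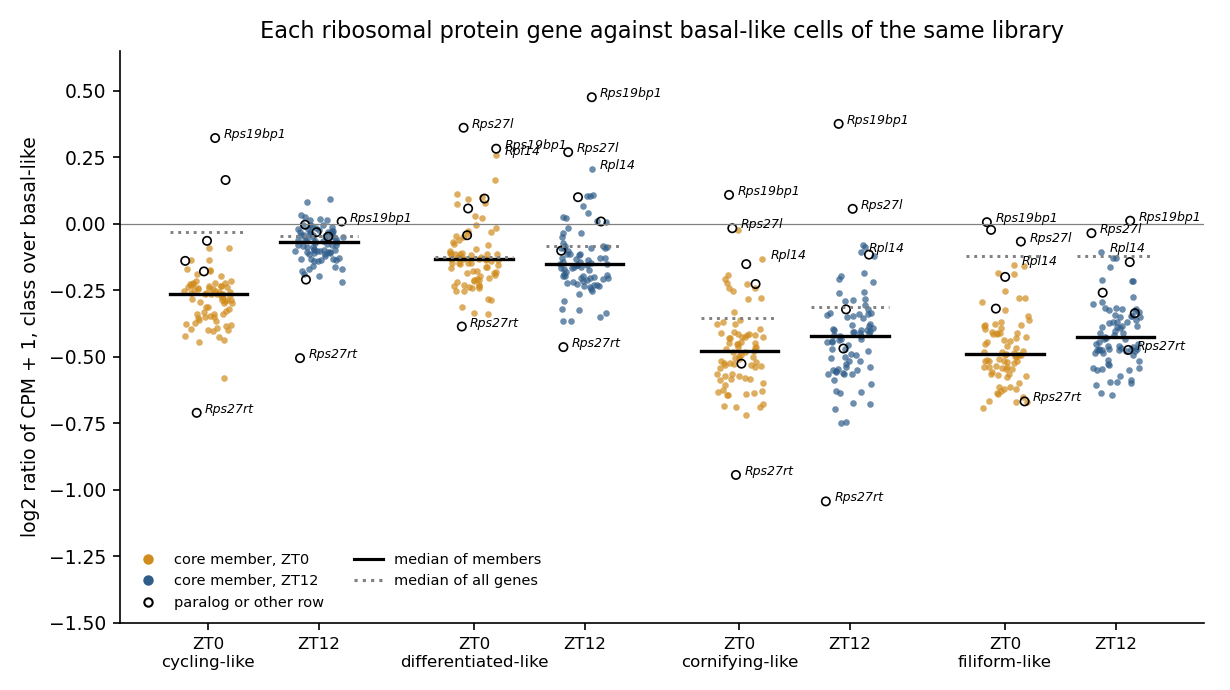
Log2 ratio of CPM plus 1, class over basal-like cells of the same library, for 83 ribosomal protein genes (1 point a gene, jittered sideways), by class and library on the x axis. Open circles are paralogs and other rows, black bars the members' median and dotted grey bars the median of all 5807 genes. Core members form narrow bands below 0 in cornifying-like and filiform-like cells, where Rps19bp1, Rps27l and Rpl14 lie above the medians, and Rps27rt lies lowest in cornifying-like cells.

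Few members left that band. With a departure defined as at least 0.5 log2 from the members' median in the same direction in both libraries, no member departed in cycling-like, differentiated-like or filiform-like cells and 1 did in cornifying-like cells. That call did not hold with a stricter cell filter, at clustering resolutions 0.6 and 1.5 (where Rps27l departed instead at 1.5) or with a minimum of 50 CPM. Of all genes, 12.9%, 31.8%, 33.6% and 45.5% lay that far from the all-gene median in cycling-like, differentiated-like, filiform-like and cornifying-like cells. The exception was Rps19bp1 (ENSMUSG00000051518, chromosome 15, 80260615 to 80264315), which encodes a protein that binds Rps19 and is no part of the ribosome. The ZT0 library held it at 38.8 CPM in basal-like and 41.9 in cornifying-like cells and the ZT12 library at 33.8 and 44.2, ratios of 1.08 (0.857 to 1.35) and 1.31 (1.10 to 1.54). Its level thus did not go down with the ribosomal proteins, and at 4998 UMIs in all it was among the 5 least counted members.

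With a smaller departure of 0.3, which 49.9%, 60.7% and 49.9% of all genes met in differentiated-like, cornifying-like and filiform-like cells, 3 members stood above the rest in differentiated-like, cornifying-like and filiform-like cells alike: Rps19bp1, Rps27l and Rpl14. Rps27l (chromosome 9, 66946086 to 66949516 in mm10), a paralog of Rps27 known as a p53 target, was at 389 and 372 CPM in basal-like cells at ZT0 and ZT12, 500 and 449 CPM in differentiated-like and 371 and 363 CPM in filiform-like cells. It was 1.28 (1.24 to 1.33) and 1.21 (1.17 to 1.24) times its basal-like level in differentiated-like cells, and within counting error of it in cornifying-like and filiform-like cells. Rps27 itself, a core small subunit protein, went the other way, from 2626 and 2052 CPM in basal-like to 2081 and 1591 CPM in differentiated-like cells.

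Rpl14 (chromosome 9, 120571444 to 120574654), a large subunit protein, was the core member that departed in those 3 classes. It was at 3242 and 3545 CPM in basal-like cells, 3874 and 4091 CPM in differentiated-like cells, a ratio of 1.19 (1.18 to 1.21) and 1.15 (1.14 to 1.17), and 2913 and 3295 CPM in filiform-like cells. Rps29, a small subunit protein, and Rpl36al, a paralog of Rpl36a, departed upward in cornifying-like cells only at this limit. Rps29 had 1920 and 1540 CPM in basal-like against 1890 and 1449 CPM in cornifying-like cells, and Rpl36al at 773 and 719 CPM against 695 and 664 CPM.

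Rps27rt (chromosome 9, 114982366 to 114982739), an intronless retrogene copy of Rps27, departed downward at 0.3 in cycling-like cells, where 26.5% of all genes did, and in cornifying-like cells. Its level was 37.5 and 31.7 CPM in basal-like, 22.5 and 22.05 CPM in cycling-like and 19.0 and 14.9 CPM in cornifying-like cells. Of the 60-base stretches in the last 400 bases of its transcript 90.8% also occur in other annotated transcripts. The same holds for 98.6% of those of Rps27. Reads from shared stretches may not point to a single copy, so both levels are uncertain. Such sharing is common in this family: it covered over 80% of the tail in 21 of the 83 members and none of it in 20.

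The remaining paralogs behaved as the core members did, within 0.3 of their median in all classes. Rpl22l1, the paralog of Rpl22, had 848 and 673 CPM in the basal-like class and 724 and 538 CPM in the cornifying-like class. Rpl7l1, a nucleolar relative of Rpl7, was at 93.7 and 95.6 CPM against 64.7 and 68.8 CPM.

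The most counted members were Rplp0 (891910 UMIs), Rpl13 (766702), Rps2 (719046) and Rplp1 (688070). These are counts of transcript ends, which do not scale with gene length. Rplp0, the scaffold of the ribosomal stalk, was at 7962 and 8564 CPM in basal-like cells and 7138 and 7645 CPM in filiform-like cells, ratios of 0.897 (0.883 to 0.910) and 0.893 (0.881 to 0.904). Rpl13, a large subunit protein, was at 7452 and 7756 CPM against 4679 and 5097 CPM, ratios of 0.628 (0.616 to 0.640) and 0.657 (0.647 to 0.667). Both abundant genes were lower in filiform-like cells, Rpl13 by much more in both libraries. Beside Rpl3l, Rpl10l and Rpl39l, the least counted members were Rps27rt (3122 UMIs) and Rps19bp1.

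Between the libraries the group did not move as 1 block, although its total hardly differed. Members with short coding sequences were lower at ZT12 and members with long ones higher. The 41 members under 450 coding bases took 10.7% of all UMIs at ZT0 and 9.57% at ZT12, and 39 of them were lower at ZT12. The 42 members of 450 bases or more took 15.2% and 15.97%, and 34 of them were higher. Of other genes, 112 of 176 under 300 bases and 219 of 378 between 300 and 450 bases were lower at ZT12. From 450 to 600 bases 215 of 446 other genes were lower, and at 600 or more 2382 of 4663. Members lower by at least 1.2-fold numbered 14 of 83, against 11.2% of all genes, and none was higher by that much, against 7.04% of all genes. In all cells the members spread wider between the libraries than all genes, with an interquartile range of 0.27 against 0.23. The ranges were 0.28 against 0.23 in differentiated-like and 0.26 against 0.27 in basal-like cells. In cycling-like, cornifying-like and filiform-like cells the members spread less, with 0.31 against 0.46, 0.23 against 0.37 and 0.27 against 0.29.

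The lowest at ZT12 was Rps28 (chromosome 17, 33819027 to 33824562, 207 coding bases), a small subunit protein, which went from 2207 CPM to 1627 CPM, or 0.737 of its ZT0 level (0.731 to 0.743). Rpl22l1 followed with 0.754 (0.743 to 0.764). The large subunit genes Rpl38, Rpl39 and Rpl35a and the small subunit gene Rps27 had ratios between 0.780 and 0.791. Each of these 6 was also lower at ZT12, relative to the members' median, in basal-like, cycling-like, differentiated-like and filiform-like cells.

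The highest at ZT12 was Rpl5 (chromosome 5, 107900502 to 107909005, 891 coding bases), which with Rpl11 carries the 5S RNA into the large subunit, which went from 2622 CPM to 3017 CPM, or 1.15 times its ZT0 level (1.14 to 1.16). Rps3a1 and Rps9 of the small subunit and Rpl15, Rpl8 and Rpl14 of the large subunit followed, with ratios between 1.10 and 1.14. In all, 37 members were above and 35 below the members' median in all cells and in every one of the 4 classes with at least 50 cells in both libraries. Of all genes 15.8% were above and 15.9% below their own median throughout. The classes share the 2 libraries, and members have more counts than most genes, so the part of counting noise in this gap was not tested. No member departed by 0.5 log2 in all cells, against 5.36% of all genes from their own median. At 0.3 the 6 low members departed and no high one did, against 14.4% of all genes. In cycling-like cells Rps19bp1 departed downward by 0.5, from 48.7 to 34.01 CPM (ratio 0.698, 0.514 to 0.932), where 16.7% of all genes departed. At 0.3, 10 members were low and 2 high there, Rps3a1 and Rps9, against 38.6% of all genes.

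The order by coding length was seen in each class. Across the 83 members, Spearman's rho between coding length and the log2 ratio of ZT12 to ZT0 was 0.87 in all cells, 0.86 in basal-like, 0.86 in differentiated-like, 0.80 in cycling-like and 0.80 in filiform-like cells. It was 0.82 in cornifying-like, 0.85 in gland-like and 0.58 in myeloid- or Langerhans-like cells, the last with 22 and 10 cells. Large and small subunit genes did not separate in this order, with median log2 ratios of -0.03 and -0.01 in all cells. These are correlations across genes that share 2 libraries.

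Other genes showed little of it. Over 5663 other genes the same rho was 0.00 in all cells. In the named keratinocyte classes it lay between -0.21 in cornifying-like and 0.08 in cycling-like cells. The 176 other genes under 300 coding bases had a median log2 ratio of -0.07, against -0.32 for the 11 members of that length, and 112 of them were lower at ZT12. Among 145 other genes of at least 500 CPM rho was 0.12, and the 17 under 300 bases had a median of -0.08. Ratios of the members between classes within a library followed length much less, with rho between -0.35 and 0.02. Why the order between the libraries followed length was not tested, and time of day and library cannot be told apart in it.

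**Figure D4:**
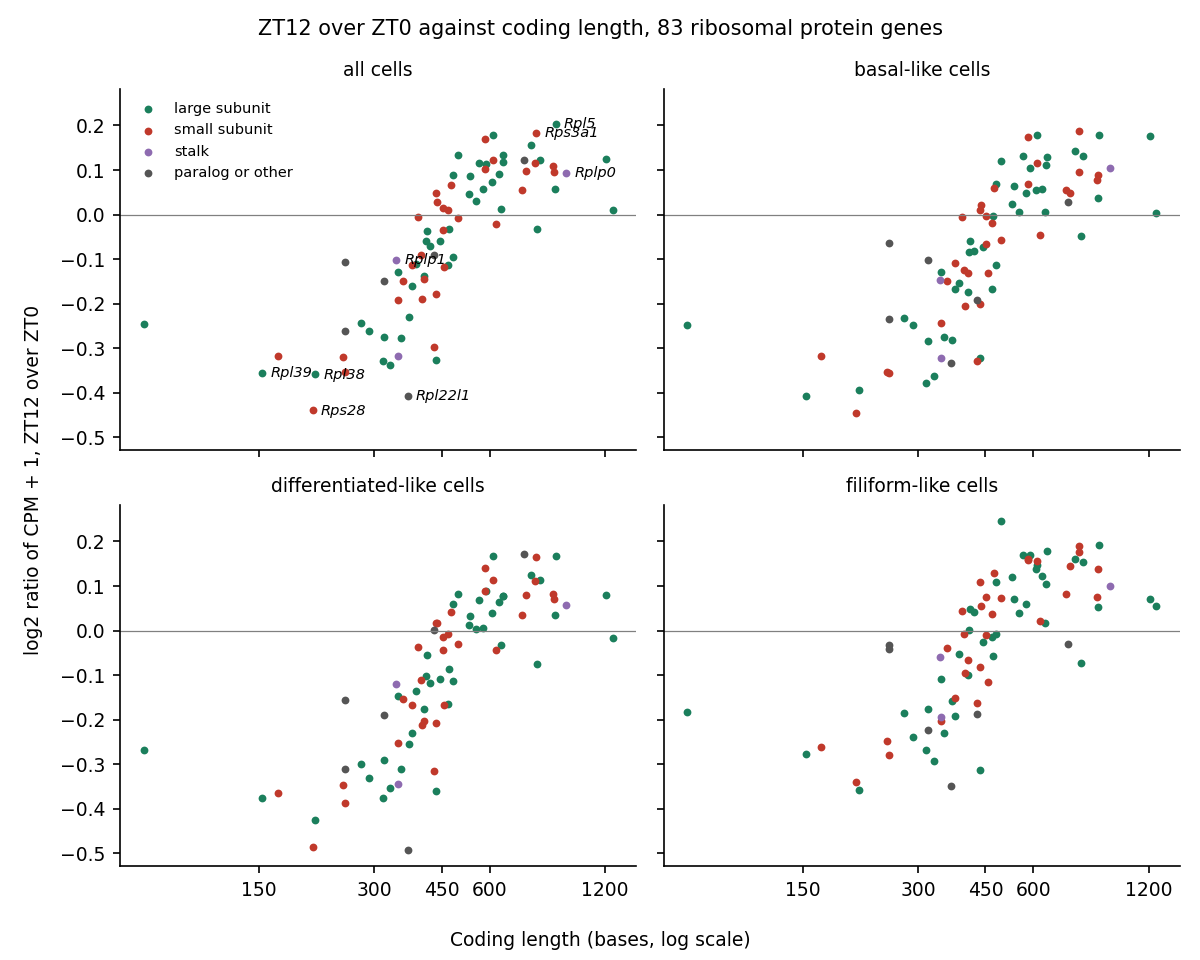
Log2 ratio of CPM plus 1, ZT12 over ZT0 (y axis), against coding length in bases (x axis, log scale) for 83 ribosomal protein genes in all cells and in 3 classes, coloured by subunit. Points under 450 bases lie mostly below 0 and longer ones mostly above in each panel, with no separation of subunits.

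Genes around the ribosome were read from lists. The 20 translation factors and other TOP mRNAs include Eef1a1, which brings aminoacyl-tRNA to the ribosome, and Eif4b, a helicase cofactor of initiation. They were lower still in cornifying-like cells, with a median of -0.70 in both libraries. In each, 17 of 20 were lower by at least 1.2-fold, against 54.6% and 52.5% of all genes. In differentiated-like cells the 20 genes had medians of -0.34 and -0.45, where the members had -0.13 and -0.15. There 13 and 15 of 20 were lower by that much, against 38.8% and 36.9% of all genes.

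Of 30 ribosome biogenesis genes 28 reached 20 CPM. They stood near the basal-like level in differentiated-like cells, with medians of 0.09 at ZT0 and -0.04 at ZT12. In cornifying-like cells they stood below it, with medians of -0.83 and -0.70. There 23 of 28 were lower by at least 1.2-fold in each library, against 54.6% and 52.5% of all genes. The box C/D protein Fbl was at -1.17 and -1.34 there and the pseudouridine synthase Dkc1 at -1.45 and -1.51. Nhp2, a partner of Dkc1 in box H/ACA particles, went the other way at 1.39 and 1.48, and was also above basal-like cells in differentiated-like cells at 1.26 and 1.199. Mitochondrial ribosomal proteins (75 of 78 measured) were at or above the basal-like level in cycling-like cells, with medians of 0.15 and 0.09. In cornifying-like cells their medians were -0.31 and -0.11. Mitochondrially encoded genes (11 of 13 measured) had medians of -0.89 and -0.88 there.

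Of 10 genes that control ribosome genes 7 reached 20 CPM. Eif4ebp1, the mTOR target that holds back cap-dependent translation, was above basal-like cells in differentiated-like cells at log2 ratios of 0.83 and 0.76 and in cornifying-like cells at 0.99 and 0.72, and below them in filiform-like cells at -0.71 and -0.75. Myc, a transcription factor that drives ribosome genes, was at -0.94 and -0.63 in cycling-like and -1.29 and -1.08 in cornifying-like cells. Larp1, which binds TOP mRNAs, lay between -0.16 and 0.24 in all 4 classes. Between the libraries, translation factors and other TOP mRNAs had a median log2 ratio of ZT12 to ZT0 of 0.12 in all cells and biogenesis genes 0.17, against -0.03 for the members and -0.01 for all genes. In all cells none of the 20 translation factors and none of the 28 biogenesis genes was lower at ZT12 by 1.2-fold, against 11.2% of all genes. Higher by that much were 0 of the 20 translation factors and 6 of the 28 biogenesis genes, against 7.04% of all genes.

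**Figure D5:**
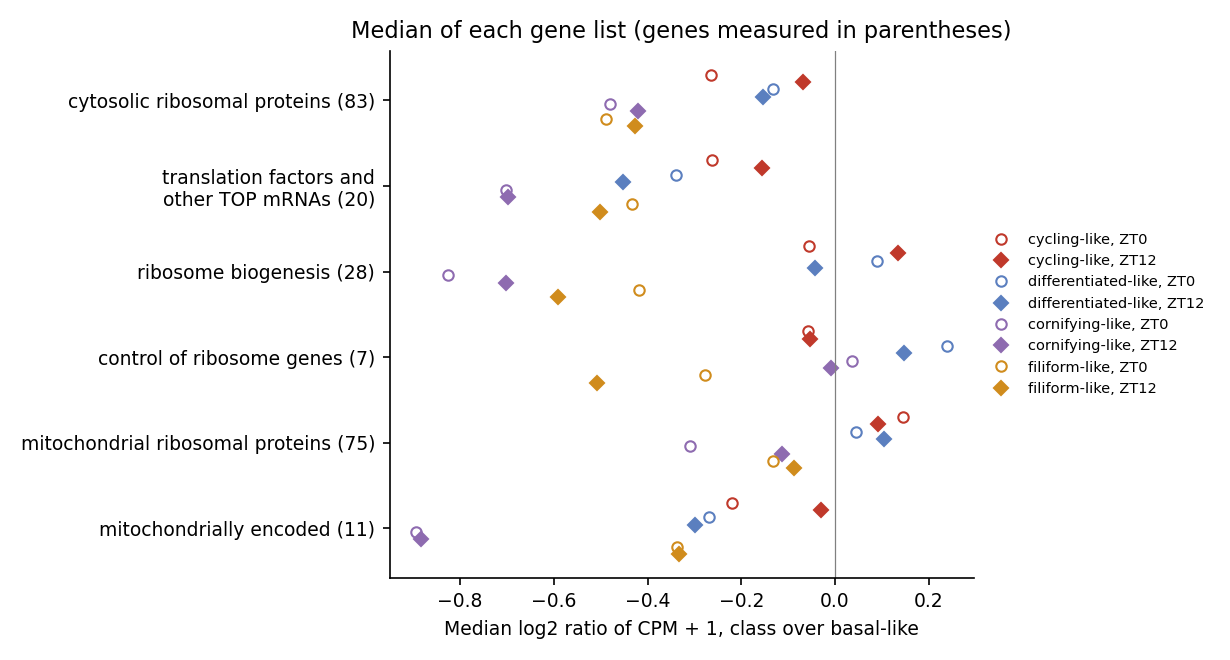
Median log2 ratio of CPM plus 1, class over basal-like cells (x axis), for the ribosomal proteins and 5 related lists (rows, genes measured in parentheses). Colours mark the class, open circles ZT0 and filled diamonds ZT12. Translation factors and biogenesis genes lie lower than the ribosomal proteins in cornifying-like cells, where mitochondrially encoded genes lie lowest. Mitochondrial ribosomal proteins lie above 0 in cycling-like and differentiated-like cells and below 0 in cornifying-like and filiform-like cells.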

How the data were processed

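Both libraries hold raw UMI counts per gene and cell as deposited by the authors, made with the 10x 3' v2 protocol per the labels. The submitters' processing notes name Cell Ranger 2.1.1 and mm10, while the matrix headers name version 4.0.0. The sources used here do not state the annotation release. Barcodes under 500 genes or at 10% or more mitochondrial UMIs were removed (129 at ZT0, 191 at ZT12). Scrublet called 4 and 6 doublets (0.25% and 0.23%), so doublets were in effect not removed. Cells were clustered with scanpy 1.11.5 on 2000 variable genes, 30 components, 15 neighbours and Leiden resolution 1, without integration. Cytosolic and mitochondrial ribosomal protein genes and mitochondrially encoded genes were left out before the variable genes were chosen. So were listed clock, immediate early and sex-specific genes and the Hsp and Dnaj genes. A cluster took the class with at least 3 markers and 50% of its list 1.2-fold higher than elsewhere, a scoring chosen after the clusters were seen. Members and lists were chosen with earlier results of these data known. Counts were summed per library and class and scaled to CPM, with a pseudocount of 1 and a minimum mean of 20. Shares carry Clopper-Pearson and ratios exact conditional binomial 95% intervals. Named members were up to 6 departing members per direction and contrast (between the libraries, the 6 farthest with 1 sign in all classes compared), the 5 most and 5 least counted, and paralogs with at least 100 UMIs; 1 of the most counted is not reported here. Those named at the 0.3 limit were chosen after their values were seen. Positions and coding lengths came from GENCODE M21 (GRCm38, the build of mm10), sequences from RefSeq. The contrasts were tested on simulated data. Alternatives covered filters, doublets, resolution, denominators, scaling (edgeR 4.0.16), pseudocount, minimum CPM and the departure limit.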

Additional observations from a re-analysis of the deposited data

Results flagged for a closer look

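In cycling-like cells the ribosomal protein share was higher at ZT12, with a log2 ratio of 0.18, while in basal-like cells it was lower, with -0.03. The libraries, 1 at each time, moved opposite ways in these classes, and the difference was not tested. Beside it stand the values within cells of more and of less mitotic mRNA given above, 0.01 and 0.07. The cycling-like ratio was 0.11 at clustering resolution 1.5, and the basal-like ratio turned to 0.0042 with TMM scaling.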

How the results depend on the processing

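Log2 ratios of the member share to basal-like cells, averaged over both libraries, stayed below 0 in every alternative run: cycling-like -0.17 (-0.34 to -0.08), differentiated-like -0.14 (-0.19 to -0.06), cornifying-like -0.45 (-0.48 to -0.26) and filiform-like -0.45 (-0.72 to -0.11). Differentiated-like cells had -0.16 with a stricter cell filter (1000 genes, 5% mitochondrial UMIs), -0.17 without the 5% highest doublet scores, -0.19 at resolution 1.5, -0.10 without clusters of 1 library, -0.060 without the 50 most abundant other genes and -0.12 as a mean over cells. Cornifying-like cells had -0.39 with the stricter filter, -0.31 without the highest doublet scores, -0.28 at resolution 0.6, -0.48 without mitochondrial genes and -0.26 without the 50 genes. Filiform-like cells had -0.37 at resolution 0.6, -0.54 at 1.5, -0.38 without the 50 genes, and -0.72 and -0.11 in each cluster on its own. Cycling-like cells with more mitotic mRNA had -0.34. The split of cycling-like cells and of filiform-like clusters was added after seeing the data.

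The log2 ratio of ZT12 to ZT0 over all cells, -0.02, was -0.021 without the highest doublet scores and as a mean over cells, -0.018 in cells of at least 10000 UMIs, -0.017 without clusters of 1 library, -0.024 without mitochondrial genes, -0.019 for core members and -0.033 with classes weighted alike. It was 0.0061 without the 50 genes and 0.050 with TMM scaling. The cause of these shifts was not tested.

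At a limit of 0.3, 1 member departed in cycling-like, 3 in differentiated-like, 6 in cornifying-like and 3 in filiform-like cells, and 6 between the libraries. Rps27l departed in differentiated-like cells (1 member) without the highest doublet scores and at resolution 0.6, and Rps19bp1 in filiform-like cells (1 member) at resolution 1.5. In cornifying-like cells 2 members departed without clusters of 1 library, Rps19bp1 and Rps27rt, 1 at resolution 1.5, which was Rps27l and not Rps19bp1, and 0 with the stricter filter, at resolution 0.6, at a minimum of 50 CPM, which Rps19bp1 does not reach, and at a limit of 1. No paired analysis was possible because each time has 1 library and no result comes from a test. Depth limits Rps19bp1 and Rps27rt most, and myeloid-like and cornifying-like cells are few.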
